A study of Mus musculus with 12 samples.

Results

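Of the 12 libraries made from B16F10 mouse melanoma cells, 8 held transcripts of lung and other tissues and 4 did not. The libraries were chosen by the summed level of 7 lung genes (Sftpc, Sftpa1, Sftpb, Sftpd, Scgb1a1, Slc34a2 and Ager) in CPM, their counts scaled to a library total of 1000000, and a library with a sum of at least 1 CPM was placed among those with lung transcripts. The measured sums themselves made this division, so the contrast of the 8 with the 4 libraries is described below and was not used as evidence for anything. Transcripts seen in these 8 libraries and at or near 0 in the other 4 are called foreign here, and the rules that count them are given with the counts.

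B16F10 is a transplantable melanoma line from the C57BL/6 mouse, and the labels call all samples melanoma cells. The cells carried either wild-type IRF7, a transcription factor needed for full production of type I interferons, or IRF7 with the substitution C435A (called mutant below). Each form was sequenced without treatment (control) and after interferon alpha (IFNα), with 3 libraries in each of the 4 groups. The labels give neither the dose and time of IFNα nor how the mutant cells were made, nor whether replicates were grown separately. The p-values below therefore speak only of how these libraries vary, and that variation may be technical.

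The gas-exchanging surface of the lung is lined by alveolar type 1 cells, which are thin and cover most of it, and by alveolar type 2 cells, which secrete surfactant, a film of lipids and proteins that keeps the air spaces open. The small airways are lined by club cells, which secrete Scgb1a1, and by ciliated cells, which move mucus. A piece of lung tissue also holds capillary endothelium, fibroblasts, resident macrophages and blood. Surfactant proteins and haemoglobin are not products of the melanocyte lineage.

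The split was wide. In the groups with libraries of both kinds, the lung sum was 44.2 CPM in wild-type control 1 against 0.122 and 0.252 in wild-type control 2 and 3, and 69.1 in mutant IFNα 3 against 0.0952 and 0.162 in mutant IFNα 1 and 2. All 3 libraries of wild-type IFNα had lung transcripts, at 56.8, 47.2 and 63.4 CPM, and so had all 3 mutant control libraries, at 50.6, 62.8 and 51.5. The sums of these 2 groups overlapped. The lowest library above the threshold (44.2) and the highest below it (0.252) were far from it on either side. In counts the 4 libraries without lung transcripts held 9, 19, 7 and 12 counts of the 7 genes together, and the 8 libraries with them held 3156 to 4535. Library totals were 60511573 to 75927461 counts. The melanocyte genes were high in both kinds of library, with a summed level of 7542 to 11640 CPM over 12 genes in the 8 and 7888 to 10545 in the 4.

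The distribution over the groups was uneven, and it sets what the files can show. The controls of the wild type had lung transcripts in 1 library of 3 and the mutant with IFNα in 1 of 3, whereas the other 2 groups had them in 3 of 3. A model that holds the group constant sees their contrast in 2 libraries with against 4 without. Mutant IFNα 3 also stood apart from its replicates across the transcriptome. The SD of its log2 ratio to them over 6318 well-counted genes was 0.434 and 0.436, against 0.274 between those.

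The genes of alveolar type 2 cells were the plainest foreign group. Sftpc, the surfactant protein made only by these cells in the adult lung (chromosome 14, 70758389 to 70761521 on the minus strand as deposited), was at 9.63 CPM in wild-type control 1, 8.07, 9.41 and 22 in wild-type IFNα, 10.7, 22.9 and 12.4 in the mutant controls and 10.7 in mutant IFNα 3. In the other 4 libraries it was at 0, 0.172, 0 and 0. Wild-type IFNα 3 and mutant control 2 had the highest levels, about level with each other and above the remaining 6. The other surfactant proteins of the rule did not follow that order. Sftpa1 had a median of 7.98 CPM in the 8 libraries (5.91 to 10.4), Sftpd 4.64 (3.06 to 6.71) and Sftpb 2.67 (1.76 to 5.92), and all 3 were at 0 in each of the 4. Slc34a2, which carries phosphate into type 2 cells, had a median of 2.74 CPM (1.96 to 4.25) and at most 0.0544 in the 4. Outside the rule, Chil1, a chitinase-like secreted protein, was at 6.09 to 12.1 CPM in the 8 and 0 in the 4. Lamp3, a protein of the lamellar bodies in which surfactant is stored, was at 0.902 to 2.38 CPM against at most 0.106. Cxcl15, a chemokine of lung epithelium, had a median of 1.87 CPM and was at 0 in the 4. Not every marker was foreign. Abca3, the lipid pump of the lamellar bodies, was at 12.7 to 22.3 CPM in the 8 and up to 18.5 in the 4, which overlapped. Of the 14 type 2 markers in the table, 10 were higher in each of the 8 libraries than in each of the 4, where 246 of 27503 genes (0.894%) were. In the opposite direction 78 genes (0.284%) and 0 type 2 markers were. The 10 include Sftpc, Sftpa1, Sftpb, Sftpd and Slc34a2, whose levels made the split, so the count is no evidence for it.

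Ager, the receptor that marks alveolar type 1 cells, was at 4.4 to 7.13 CPM in the 8 libraries, with a median of 5.85, and at 0.122, 0.0796, 0 and 0.162 in the 4. Its spread among the 8 was the smallest of the 7 genes of the rule. Cldn18, a tight junction protein of the alveolar epithelium, had a median of 0.909 CPM in the 8 and was foreign as well. Pdpn and Vegfa, often used as type 1 markers, were at 8.26 to 16.4 and 9.05 to 18.5 CPM in the 8 and at up to 14.4 and 12.9 in the 4, and Aqp5 was at 2.07 to 2.5 against up to 2.6. These 3 genes overlapped between the kinds of library.

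Airway cells were represented through the club cell. Scgb1a1, its main secreted protein (chromosome 19, 9061000 to 9065322 on the minus strand as deposited), was at 13 CPM in wild-type control 1, 22.3, 18 and 18 in wild-type IFNα, 18.3, 15.6 and 14.3 in the mutant controls and 27.1 in mutant IFNα 3. In the 4 libraries without lung transcripts it was at 0, 0, 0.0408 and 0. Scaled for transcript length as FPKM, the fragment values scaled for transcript length and depth that the authors deposited, Scgb1a1 had the highest median of all foreign genes in the 8 libraries, at 36.3, followed by Sftpc at 9.74 and Hbb-bs at 6.25. Cyp2f2, a cytochrome P450 of club cells, had a median of 0.873 CPM, and Aldh1a1, a retinal dehydrogenase, of 1.2, both near 0 in the 4. Hp, which binds free haemoglobin, was at 5.38 to 17.1 CPM against 0 in each of the 4. Cbr2, a carbonyl reductase of lung, was higher in the 8 (5.06 to 11.4 CPM) than in the 4 without being absent there (up to 4.35).

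Ciliated cells left little. Of their 13 markers in the table Sec14l3, a lipid-binding protein of airway epithelium, was the clearest, at 0.175 to 1.2 CPM against at most 0.0663. Foxj1, the master regulator of cilia, was at 0.151 to 0.377 CPM in the 8 and 0.109 to 0.305 in the 4, which overlapped. Of the 6 goblet and mucous gland markers none was higher in all of the 8 than in all of the 4. Over all genes the share was 0.894%, so 0 of 6 is near it. In bulk RNA, fewer cells of a type and less RNA per cell cannot be told apart.

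Red blood cells were the next group. Haemoglobin of the adult mouse consists of alpha chains from Hba-a1 and Hba-a2 and beta chains from Hbb-bs and Hbb-bt, each a pair of nearly identical gene copies. Hbb-bs (chromosome 7, 103475741 to 103477135 on the minus strand as deposited) was at 4.03 CPM in wild-type control 1, 2.33, 10.7 and 6.03 in wild-type IFNα, 12.5, 6.31 and 3.49 in the mutant controls and 4.02 in mutant IFNα 3, against 0, 0, 0.0952 and 0. The highest levels were in wild-type IFNα 2 and mutant control 1. The order was the same for the alpha chains, as Hba-a1 was highest in mutant control 1 (8.13 CPM) and wild-type IFNα 2 (7.52) and lay between 2.89 and 5.17 in the other 6. Alas2, the haem-making enzyme of immature red cells, did not exceed 0.209 CPM in any library.

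The copies are shown because a read within their coding sequence can be assigned to 1 copy only where it covers the differing base. The coding sequences of Hbb-bs and Hbb-bt have 444 bases each and differ at 1 (C417T, the Hbb-bs base first, counted from 1 at the first base of the start codon), and those of Hba-a1 and Hba-a2 have 429 bases each and also differ at 1 (C381T, the Hba-a1 base first). The windows below hold 68 bases around that position, taken from the GENCODE M21 transcripts on GRCm38, 5′ to 3′, with the differing base in capitals. They lie at chr7:103826665-103826732 (Hbb-bs, minus strand), chr7:103812656-103812723 (Hbb-bt, minus strand), chr11:32284303-32284370 (Hba-a1, plus strand) and chr11:32297120-32297187 (Hba-a2, plus strand), each in the coding part of the gene.
Hbb-bs: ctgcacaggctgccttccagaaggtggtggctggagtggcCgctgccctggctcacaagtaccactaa
Hbb-bt: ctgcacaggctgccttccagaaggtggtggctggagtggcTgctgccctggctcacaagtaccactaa
Hba-a1: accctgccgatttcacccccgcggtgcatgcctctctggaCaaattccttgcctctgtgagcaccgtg
Hba-a2: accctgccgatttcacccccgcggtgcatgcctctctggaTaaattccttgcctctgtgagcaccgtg
The level of a single copy is for that reason uncertain, and the 4 genes are better read as a sum. Summed over the 4 genes, the level was 7.64 to 29.5 CPM in the 8 libraries and at most 0.218 in the 4.

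**Figure D1:**
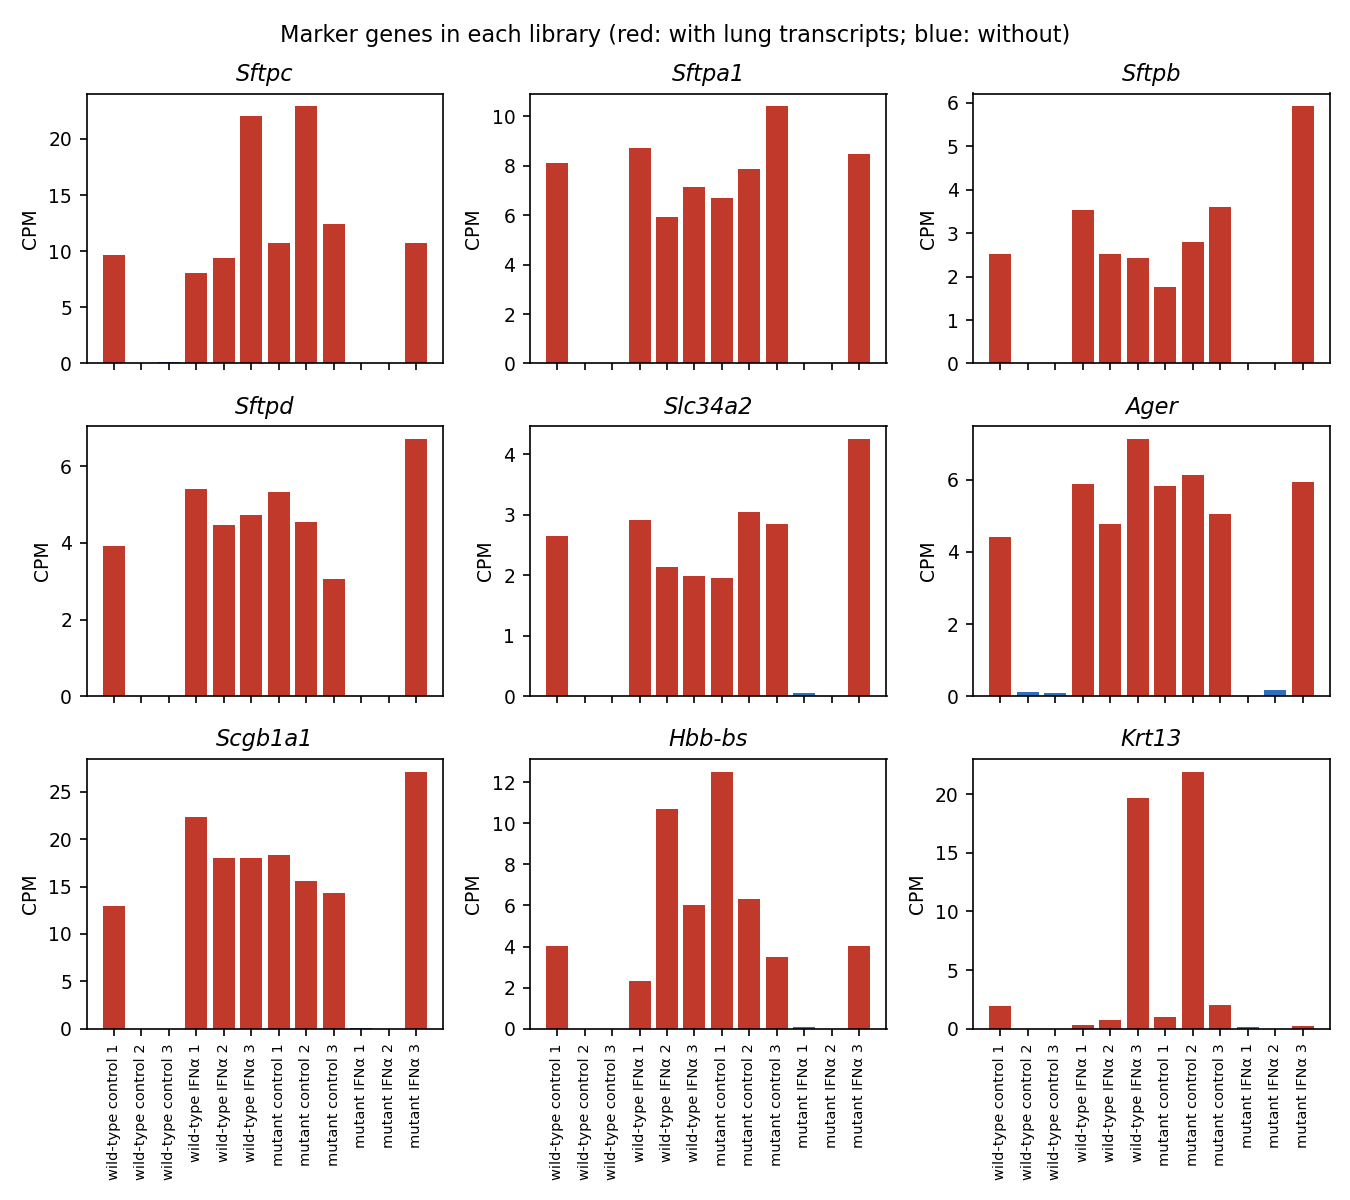
Levels in CPM (linear axes that start at 0) of the 7 genes of the rule and of Hbb-bs and Krt13 in each of the 12 libraries, with the 8 libraries with lung transcripts in red and the 4 without in blue. Scgb1a1 lay between 13 and 27.1 CPM in all red libraries, whereas Krt13 was at 19.7 and 21.9 in wild-type IFNα 3 and mutant control 2 and at 2 or less elsewhere.

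Stromal and vascular cells of lung were represented at lower levels. Cldn5, the tight junction protein of endothelium, was at 0.44 to 1.8 CPM and Clec14a, an endothelial surface lectin, at 0.461 to 0.925, and both were at 0 in each of the 4 libraries. Adgrf5, a receptor of lung endothelium and type 2 cells, had a median of 1.15 CPM against 0. Pecam1, the endothelial adhesion molecule, was at 1.02 to 3.85 CPM against at most 0.159. Egfl7 and Ramp2, 2 other endothelial markers, overlapped between the kinds of library (up to 29.8 and 27.5 CPM in the 4). Of the fibroblast genes, Mgp, an inhibitor of calcification, had a median of 2.39 CPM and was at 0 in the 4, and Inmt, a methyltransferase abundant in lung stroma, was at 0.66 to 4.17 CPM against at most 0.0544. Inmt was highest in wild-type IFNα 3 (4.17) and mutant control 2 (3.63), as Sftpc was. Eln, the elastin gene, had a median of 2.01 CPM against at most 0.109. Of the 12 markers of smooth muscle and pericytes 1 was higher in all of the 8 libraries than in all of the 4. Over all genes the share was 0.894%.

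Foreign immune transcripts were sparse. Chil3, a chitinase-like protein of alveolar macrophages, was at 0.687 to 2.2 CPM and Igha, the heavy chain of immunoglobulin A, at 0.41 to 1.72, and both were at 0 in each of the 4 libraries. Igkc, the kappa light chain, was at 0.426 to 0.922 CPM against at most 0.0951. S100a9, a protein of neutrophils, was at 0.284 to 2.36 CPM against at most 0.106, with the lowest value in mutant control 3. Gzma, a protease of cytotoxic lymphocytes, was at 0.174 to 0.685 CPM against 0. Of the T cell markers, Cd8a, a coreceptor of cytotoxic T cells, was at 0.0404 to 0.738 CPM in the 8 and at 0 in the 4, and Cd3e, a chain of the T cell receptor complex, did not exceed 0.11 CPM in any library. Of the 13 T cell markers 2 were higher in all of the 8 than in all of the 4, beside 0.894% of all genes. Lyz2, the lysozyme of macrophages and type 2 cells, was at 47.4 to 77.9 CPM in the 8 and 30.7 to 44.7 in the 4, so it was well above 0 in both. Other macrophage markers overlapped between the kinds of library. Csf1r, Cd68 and Ctss were at 13.1 to 20.2, 13.5 to 20 and 8.15 to 13.1 CPM in the 8. In the 4 they reached 27.6, 17.4 and 12.6. The lymphocyte markers Ighm, Lck and Il7r overlapped too, at up to 1.39, 3.34 and 1.74 CPM in the 4.

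By a strict rule 32 of 27503 genes (0.116%) were present only with lung transcripts: each had at least 10 counts in every one of the 8 libraries and a lowest level there at least 10 times the highest level in the 4, a level under 3 counts being taken as 3. With the libraries exchanged, 0 genes met it. Of the 32 genes, 7 are those of the rule and 25 are not, 21 were at 0 in all 4 libraries, and 24 were in a list of cell type or study genes. Their summed level was 105 to 161 CPM in the 8 and at most 1.33 in the 4. The 8 genes in no list included Lcn2, an iron-binding protein of inflamed epithelium and neutrophils (median 14.4 CPM, at most 0.915 in the 4), Lrg1, an acute-phase glycoprotein (1.2 against 0), Ces1d, a carboxylesterase (0.828 against 0), and Mal2, a protein of epithelial transport (0.783 against 0). The genes just inside the rule were Igha, Cyp2f2 and Cldn5, at 10.1, 10.7 and 10.8 times, and those just outside were Akr1c14, Lamp3 and Cdh1, at 8.77, 8.5 and 8.35.

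A wider panel took genes that were foreign in at least 2 of the 8 libraries (at least 20 counts in 2 of them, and a second-highest level at least 10 times the highest of the 4). It held 141 of the 27503 genes (0.513%), of which 74 were in a cell type list, and 0 genes met the same rule with the libraries exchanged. The panel summed to 185 to 266 CPM in the 8 libraries and to 1.53 to 3.29 in the 4. It held 8 of 14 type 2 markers, 4 of 13 type 1, 7 of 12 club cell, 4 of 8 red blood cell, 6 of 17 endothelial, 5 of 16 fibroblast, 7 of 11 adipocyte, 6 of 16 squamous and 6 of 13 skeletal muscle markers. The type 2, type 1 and club cell counts include the 7 genes of the rule, whose levels made the split. It held none of the 7 neuron, 6 astrocyte, 6 myelinating glia, 3 testis, 5 intestine, 4 stomach, 2 exocrine pancreas and 9 chondrocyte markers in the table, lists so short that 0 is near the share over all genes. Cyp2e1, a cytochrome P450 of liver that adipose tissue also makes, reached 1.06 CPM in wild-type IFNα 2 and 0.818 in mutant control 1 and was at 0 in the 4. Xist, the RNA of the inactive X chromosome, was at 0 in 11 of the 12 libraries and at 0.0631 CPM in mutant control 3. The 4 Y-linked genes summed to 1.68 to 3.59 CPM in the 8 and 1.15 to 1.78 in the 4, which overlapped. Within the mutant with IFNα they were at 2.89 in library 3 against 1.37 and 1.15 in libraries 1 and 2. Within the wild-type controls they were at 1.68 in library 1 against 1.35 and 1.78 in libraries 2 and 3.

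The foreign transcripts differed among the 8 libraries, and the genes that showed this best, chosen after their values were seen, belong to tissues other than alveolus and airway. Krt13, a keratin of the moist squamous epithelium of oesophagus, tongue and mouth (chromosome 11, 100008153 to 100012392 on the minus strand as deposited), was at 19.7 CPM in wild-type IFNα 3 and 21.9 in mutant control 2. It was at 1.98 in wild-type control 1 and 2 in mutant control 3. In wild-type IFNα 1 and 2, mutant control 1 and mutant IFNα 3 it was at 0.329, 0.714, 1.04 and 0.264, and in the 4 libraries without lung transcripts at 0, 0, 0.122 and 0. Wild-type IFNα 3 and mutant control 2 thus stood well above the other libraries, whose values formed no clear steps. The partner keratin Krt4 was at 15.5 and 14.1 CPM in the first 2 libraries, 2.7 and 2.43 in the next 2 and at most 0.497 in the other 4. Lor, which forms the envelope of cornified cells, was at 5.2 and 7.67 CPM, then 0.88 and 1.04, then at most 0.0642. Mal and Krt16, also squamous markers, overlapped between the kinds of library. They were at 0.489 to 1.5 and 0.225 to 0.975 CPM with lung transcripts and up to 1.53 and 1.12 without.

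Skeletal muscle transcripts of the panel went with the squamous ones. Acta1, the actin of skeletal muscle, was at 7.21 CPM in wild-type IFNα 3, 7.62 in mutant control 2, 1.94 in wild-type control 1 and 2.37 in mutant control 3. In the other 4 libraries with lung transcripts it was at 0.385 to 0.777, which is near its level in the libraries without them (0.381, 0.212, 0.367 and 0.108). Tnnt3, a fast-muscle troponin, was at 3.03 and 3.26 CPM in wild-type IFNα 3 and mutant control 2, 0.426 and 0.994 in wild-type control 1 and mutant control 3 and at most 0.0962 elsewhere. Myh8, the myosin of newborn muscle, was at 2.42 and 1.66, then 0.633 and 0.789, then at most 0.0661. Other muscle markers overlapped between the kinds of library. Mylpf was at 1.82 to 5.8 CPM with lung transcripts and up to 3.74 without. Ckm was at 1.57 to 7.38 against up to 1.77, and Actn3 at 0.165 to 1.61 against up to 1.66.

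Adipose transcripts of the panel had another distribution. Fabp4, the fatty acid carrier of fat cells, which capillaries and macrophages also make, was at 24 CPM in wild-type IFNα 2, 24.7 in mutant control 1, 8.36 in wild-type IFNα 3 and 10.1 in mutant control 2. In the other 4 libraries with lung transcripts it was at 0.275, 0.474, 0.71 and 0.826, and in those without at 0.285, 0.159, 0.122 and 0.0677. Ucp1, the uncoupling protein of brown fat, was at 1.28, 0.818, 0.266 and 0.516 CPM in the first 4 libraries and at 0 in the remaining 8. Cfd, the adipokine adipsin, was at 1.83, 2.25, 1.02 and 0.829 CPM in them and at most 0.055 elsewhere. Lipe and Plin1, also adipocyte markers, overlapped between the kinds of library. They were at 3.3 to 8.96 and 0.629 to 2.33 CPM with lung transcripts and up to 5.86 and 1.45 without. Myh6, the myosin of heart atrium and ventricle, was at 0.242 CPM in wild-type IFNα 2 and 0.818 in mutant control 1 and at 0 in the other 10 libraries. The heart genes of the panel (Sln, Myl3 and Actc1) did not share this order. Their sum was 2.59 CPM in wild-type IFNα 3 and 2.68 in mutant control 2, against 0.808 in wild-type IFNα 2 and 0.722 in mutant control 1. Tnnt2, another heart marker, overlapped between the kinds of library (32.1 to 64.8 CPM against up to 44.2), as did Myl4 and Myl2.

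A few transcripts were shared by wild-type IFNα 1 and mutant IFNα 3 alone. Bpifa1, a secreted protein of the nasal and upper airway lining, was at 1.58 and 1.22 CPM in these libraries and at 0 in the other 10. Reg3g, an antibacterial lectin, was at 0.514 and 0.859 CPM there and at 0 in the other 10. Gzmb, a protease of cytotoxic lymphocytes, was at 0.922 and 0.843 CPM, against at most 0.192 elsewhere.

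**Figure D2:**
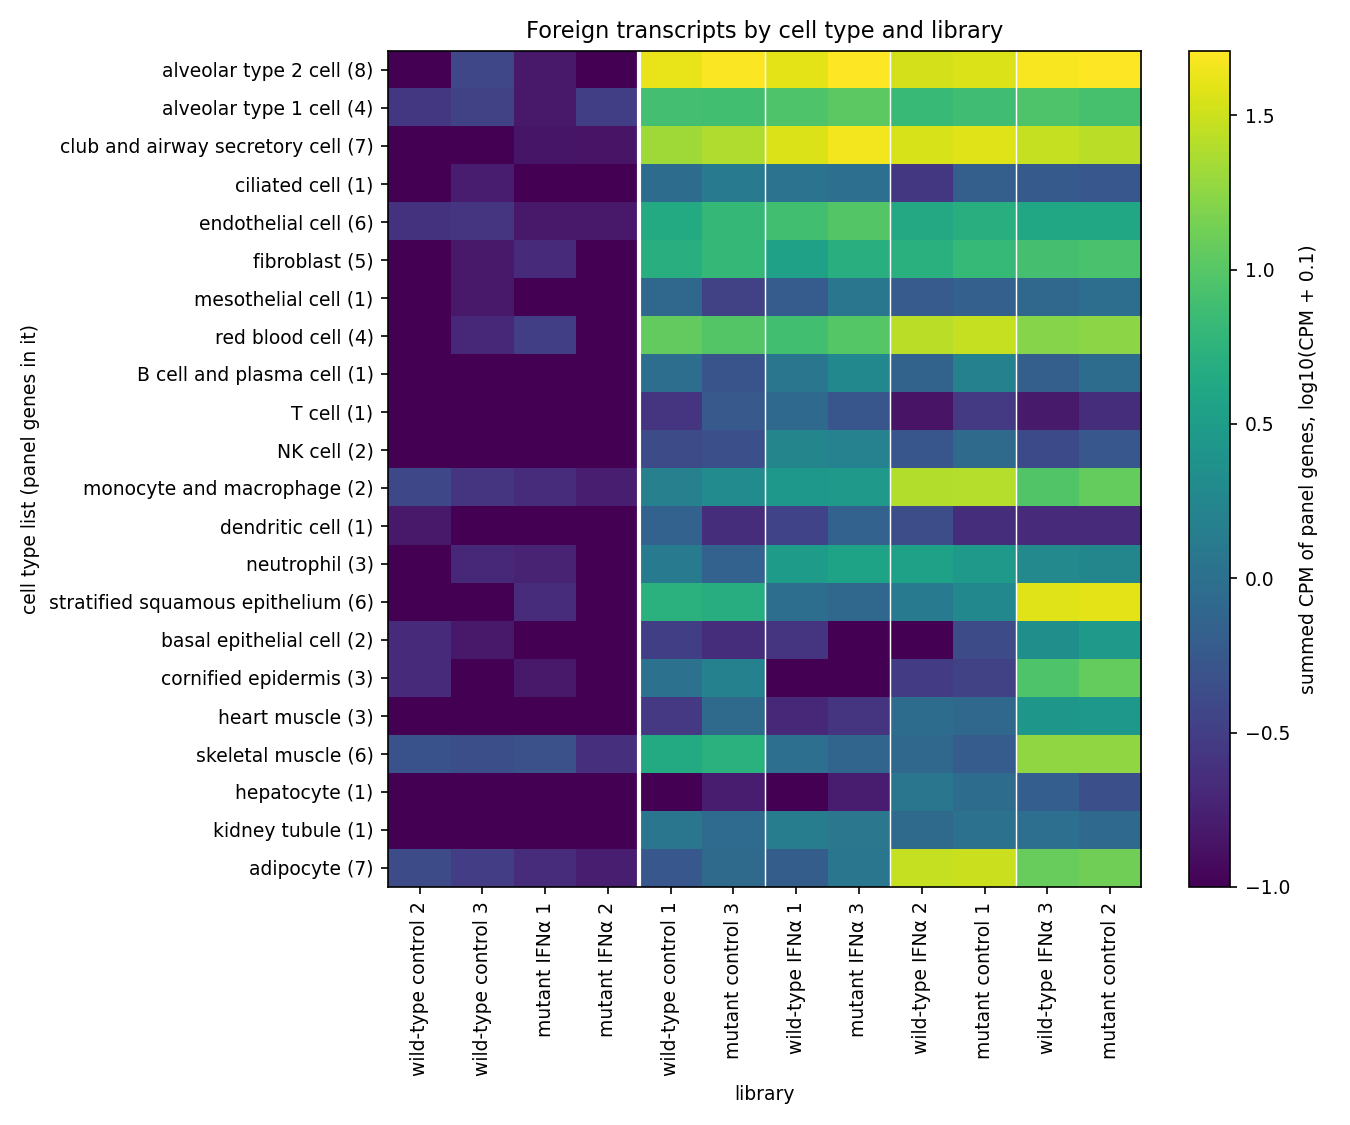
Summed CPM of the panel genes of each cell type list (rows, with the number of panel genes) in each library (columns), as log10(CPM + 0.1). The 4 libraries without lung transcripts stand left of the thick line, and thin lines part the 8 others into libraries with alike profiles. The squamous genes reached 38 and 39.6 CPM in the last 2 columns and the adipocyte genes 29.7 and 31.3 in the 2 columns before them.

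Over the whole panel the 8 libraries fell into 4 couples, and each couple joined libraries of different groups. Likeness was the Pearson correlation across the 141 panel genes on log2(CPM + 0.1). It is a description, since the genes were chosen in these libraries and are not independent of each other. Wild-type control 1 was most like mutant control 3 (0.903), wild-type IFNα 1 most like mutant IFNα 3 (0.909), wild-type IFNα 2 most like mutant control 1 (0.854) and wild-type IFNα 3 most like mutant control 2 (0.857). The second-best partner of any library reached at most 0.722. Each couple was mutual, and no library was nearest to a library of its own group. Without the 7 genes of the rule the couples were the same at 0.825 to 0.887, within the 74 panel genes of the cell type lists at 0.919 to 0.974, and within the 61 other panel genes that are not predicted genes at 0.761 to 0.923. With the 6 predicted genes and pseudogenes added to these 61, 3 libraries had another nearest partner.

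The couples had different tissue make-ups. Wild-type IFNα 3 and mutant control 2 were rich in squamous epithelium (38 and 39.6 CPM summed over its 6 panel genes) and skeletal muscle (18 and 18.1 over 6), with adipose genes at 11.9 and 13.3 over 7. Wild-type IFNα 2 and mutant control 1 were rich in adipose genes (29.7 and 31.3) and haemoglobin (26.6 and 29.5 over 4), with squamous genes at 1.2 and 1.73. Wild-type control 1 and mutant control 3 had squamous genes at 5.24 and 4.78, skeletal muscle genes at 4.47 and 5.34 and adipose genes at 0.44 and 0.773. Wild-type IFNα 1 and mutant IFNα 3 had at most 1.06 CPM of each of these 3 groups and the highest levels of endothelial genes (7.72 and 9.54 over 6). Type 2 genes, by contrast, were at 33.8 to 51.1 CPM in all 8.

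Pairs of libraries were also searched for foreign genes of their own. Such a gene had at least 20 counts in both libraries and was at least 3 times higher in both than in the other 6. Its lower level in the pair was also at least 10 times the highest level in the 4 libraries without lung transcripts. Genes with a level of their own in those 4 were thus left out. Of the 28 possible pairs, 23 had none. Wild-type IFNα 3 and mutant control 2 shared 26 such genes. By list, 6 were squamous, 3 cornified, 2 basal epithelial, 4 skeletal muscle and 1 heart genes, and 10 were in no list, among them Lce3a and Lce3c, genes of the late cornified envelope, and Rptn, which encodes repetin. Wild-type IFNα 1 and mutant IFNα 3 shared 3, and 3 other pairs shared 1 each.

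**Figure D3:**
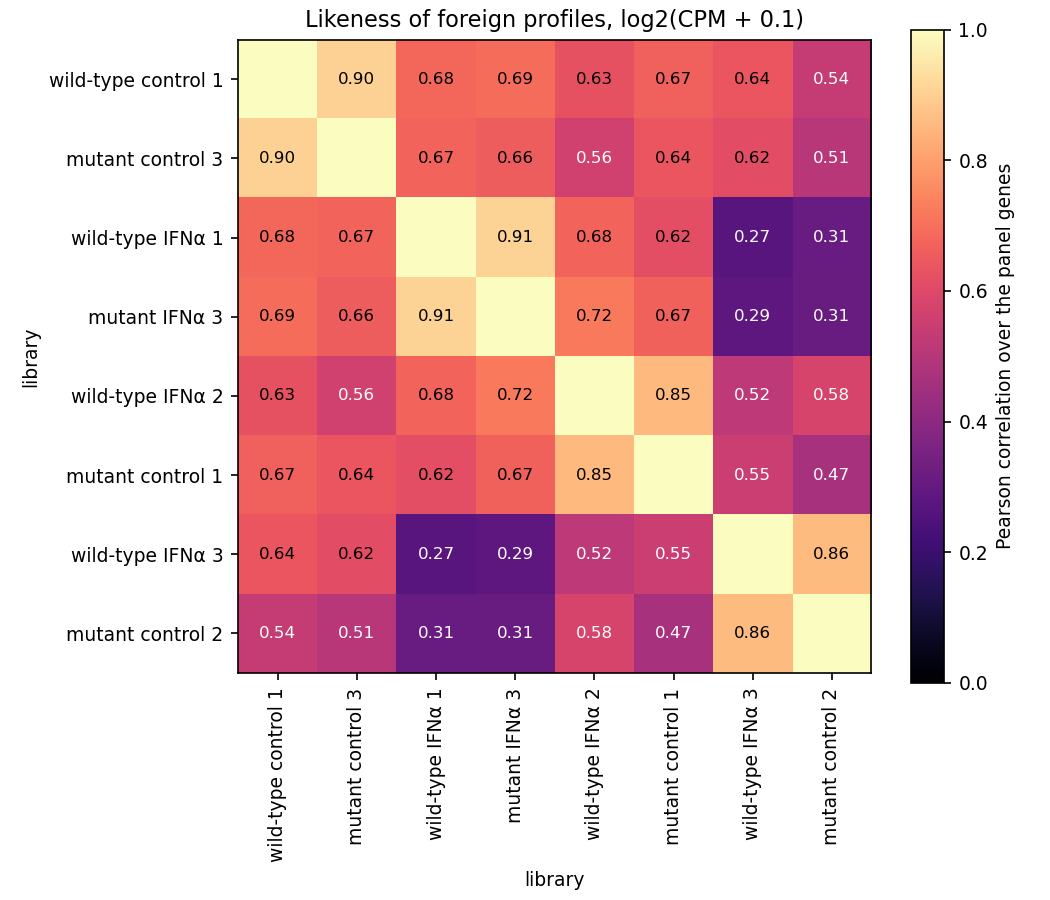
Pearson correlation across 141 panel genes of log2(CPM + 0.1) between each pair of the 8 libraries with lung transcripts (both axes). The 4 bright squares beside the diagonal are the couples, at 0.903, 0.909, 0.854 and 0.857, and all other pairs lie at 0.722 or below.

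Across the whole transcriptome the libraries did not form these couples. Over 6318 well-counted genes, the nearest library by SD of the log2 ratio belonged to the same group for 6 of the 12 libraries. Wild-type control 1 was nearest to mutant control 3 in this measure too (0.269), the only case in which the nearest library was the partner of its couple.

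Foreign genes can also be named within a single group, where genotype and treatment are the same. In the wild-type controls 87 genes (0.316% of 27496, leaving out the 7 of the rule) were at least 10 times higher in library 1 than in libraries 2 and 3, and in the mutant with IFNα 159 genes (0.578%) were so in library 3 against libraries 1 and 2. The lists had 53 genes in common, 60.9% of the first and 33.3% of the second. Of the 53, 26 were present in all 6 libraries of the 2 groups not used to choose them and 51 in at least 1. Of the 34 genes chosen only in the wild-type controls, 0 were present in all 6 and 21 in none. Of the 106 chosen only in the mutant with IFNα, 1 was present in all 6 and 75 in none. Present meant at least 10 counts and at least 10 times the highest level in all 4 libraries without lung transcripts, a level under 3 counts being taken as 3. A gene chosen in 1 group but with a level in the other group's libraries without lung transcripts could hardly meet this. The difference between these counts is therefore partly set by the rule, and nothing was drawn from it.

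Which genes of the melanoma cells themselves the split touches was read from a model with the 4 groups and a term for lung transcripts (edgeR, all 12 libraries, 17590 genes). It called 119 genes (0.677%) at an adjusted p under 0.05, 116 of them higher with lung transcripts (0.659%) and 3 lower (0.0171%). All 32 genes present only with lung transcripts were among them, as their choice requires. Since the split was made from these values, the calls describe it and support nothing. A further fit over all 12 libraries gave each mixed group its own lung term. It called 58 genes (0.33%) for the wild-type controls and 828 (4.71%) for the mutant with IFNα, where mutant IFNα 3 stands apart for other genes too. Each of these terms rests on 1 library with lung transcripts, so any other departure of that library enters it. The difference between the terms was itself called for 406 genes (2.31%). Without mutant IFNα 3 the number fell from 119 to 56, and without wild-type control 1 it was 796.

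Only 10 of the 119 genes had at least 1 CPM in every library, and thus a level of their own in these cells. Saa3, an acute-phase serum amyloid of lung, fat and macrophages, was at 2.42, 1.45, 2.64 and 3.17 CPM in the libraries without lung transcripts and at 10.7, 14.1, 22.4, 14.8, 25, 15.5, 14.2 and 14.5 in those with them. The difference was 2.42 ± 0.28 (log2, approximate standard error). Ly6a, the stem cell antigen Sca-1, was at 1.11 to 1.98 CPM against 3.73 to 6.12 (1.62 ± 0.21). Cd36, a fatty acid receptor, was at 1.67 to 3.07 against 4.24 to 7.92 (1.39 ± 0.22). Cav1, the coat protein of caveolae, which abound in endothelium and type 1 cells, was at 1.62 to 2.83 against 3.62 to 6.19 (1.08 ± 0.21), and Bgn, a matrix proteoglycan, was at 3.13 to 4.98 against 5.2 to 10.5 (0.91 ± 0.17). None of the 5 overlapped between the kinds of library. Cd36, Cav1 and Bgn were not called without mutant IFNα 3, at differences of 1.11, 0.81 and 0.71. The 4 other higher genes were predicted genes or pseudogenes (Rpl17-ps10, Gm46209, Gm5527 and Gm10362), whose reads can be shared with their parent genes. Nkap, a transcriptional regulator, was lower by the fit (−0.99 ± 0.19), although wild-type IFNα held it at 3.83 to 4.85 CPM, as high as the libraries without lung transcripts (3.77 to 4.26).

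The study's own gene groups were read beside the 0.677% of all genes called for the lung term, a share at which lists of their size hold few calls or none. Of 59 antiviral interferon-stimulated genes 0 were called. Their median difference was −0.09, beside −0.01 over all genes tested, 48.2% of which were above 0. Of the 59, 0 were higher in all of the 8 than in all of the 4, near the 0.894% of all genes. Isg15, a ubiquitin-like interferon-induced protein, had a difference of 0.20 ± 0.16 and Irf7 of 0.33 ± 0.16, neither called. Without wild-type control 1 the Irf7 difference was 0.66 and was called, and without mutant IFNα 3 it was −0.029. In the wild-type controls Irf7 was at 45.8 CPM with lung transcripts and 50.5 and 49 without, and in the mutant with IFNα at 29.7 with and 18.3 and 18.5 without. Irf1, an interferon-induced transcription factor, had a difference of −0.04 ± 0.11, Id1 and Id3, inhibitors of basic helix-loop-helix factors, of 0.10 ± 0.13 and −0.21 ± 0.12, and Cd274, the checkpoint ligand PD-L1, of −0.03 ± 0.17. Of 10 checkpoint genes tested 0 were called.

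Genes of antigen presentation by MHC class II differed in whether the kinds of library overlapped. H2-Aa, the alpha chain of I-A, was at 0.353, 0.106, 0.571 and 0.46 CPM in the 4 libraries and at 0.923 to 1.96 in the 8, which did not overlap, and its fitted difference was 2.28 ± 0.48, not called by edgeR. It was called by DESeq2 and, in edgeR, with DESeq2 size factors, library totals or robust estimation. H2-Ab1, its beta chain, was at 0.119 to 0.449 against 0.81 to 2.55 CPM (2.04 ± 0.51), and was called by DESeq2 but not by edgeR. H2-Eb1 overlapped, since mutant IFNα 3 (0.397) lay below mutant IFNα 1 (0.666). Cd74, the invariant chain that accompanies class II molecules, was far more abundant and overlapped, at 14.3 to 25.2 CPM without and 14.8 to 37.9 with lung transcripts (0.51 ± 0.16, not called). Of the 9 class II genes tested 0 were called by edgeR as first fitted. Of the 10 that the files list, 3 had all of the 8 libraries above all of the 4, beside 0.894% of all genes. Of 25 MHC class I genes 1 was called, H2-Q7, a nonclassical class I gene, at 0.0663 to 0.245 CPM without and 0.407 to 0.958 with lung transcripts (2.85 ± 0.56). H2-Q7 was not called without mutant IFNα 3 (2.41). B2m, the light chain of class I molecules, had a difference of 0.42 ± 0.13 and H2-K2 of 0.12 ± 0.15, neither called.

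Among matrix, complement and chemokine genes, 8 were called, beside 0.677% of all genes tested. Col3a1, the collagen of distensible tissues, was at 0.285, 0.464, 0.938 and 0.826 CPM without lung transcripts and at 2.67 to 3.82 with them (2.53 ± 0.25), and Col6a2 was called as well. These were 2 of 30 collagen genes tested. Col1a1, the main fibrillar collagen, was at 20.6 CPM in wild-type control 1 and mutant control 3, as low as in the libraries without lung transcripts (20.3 to 26.1), and at 40.5 to 53.1 in the other 6. C3, the central complement component, was at 0.326, 0.531, 0.734 and 0.325 CPM without and 2.22 to 7.24 with lung transcripts (3.84 ± 0.39), and Cfb, complement factor B, at 0.217 to 1.35 against 1.69 to 5.42 (2.76 ± 0.45). Cfb was not called without mutant IFNα 3 (1.68). With Serping1, the C1 inhibitor, 3 of 18 complement and coagulation genes were called. Of 34 chemokine and cytokine genes 3 were called, Cxcl12, Cxcl14 and Cxcl15, which were at 0 in each of the 4 libraries. These and Serping1 are genes of the panel, which was chosen by the same split.

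**Figure D4:**
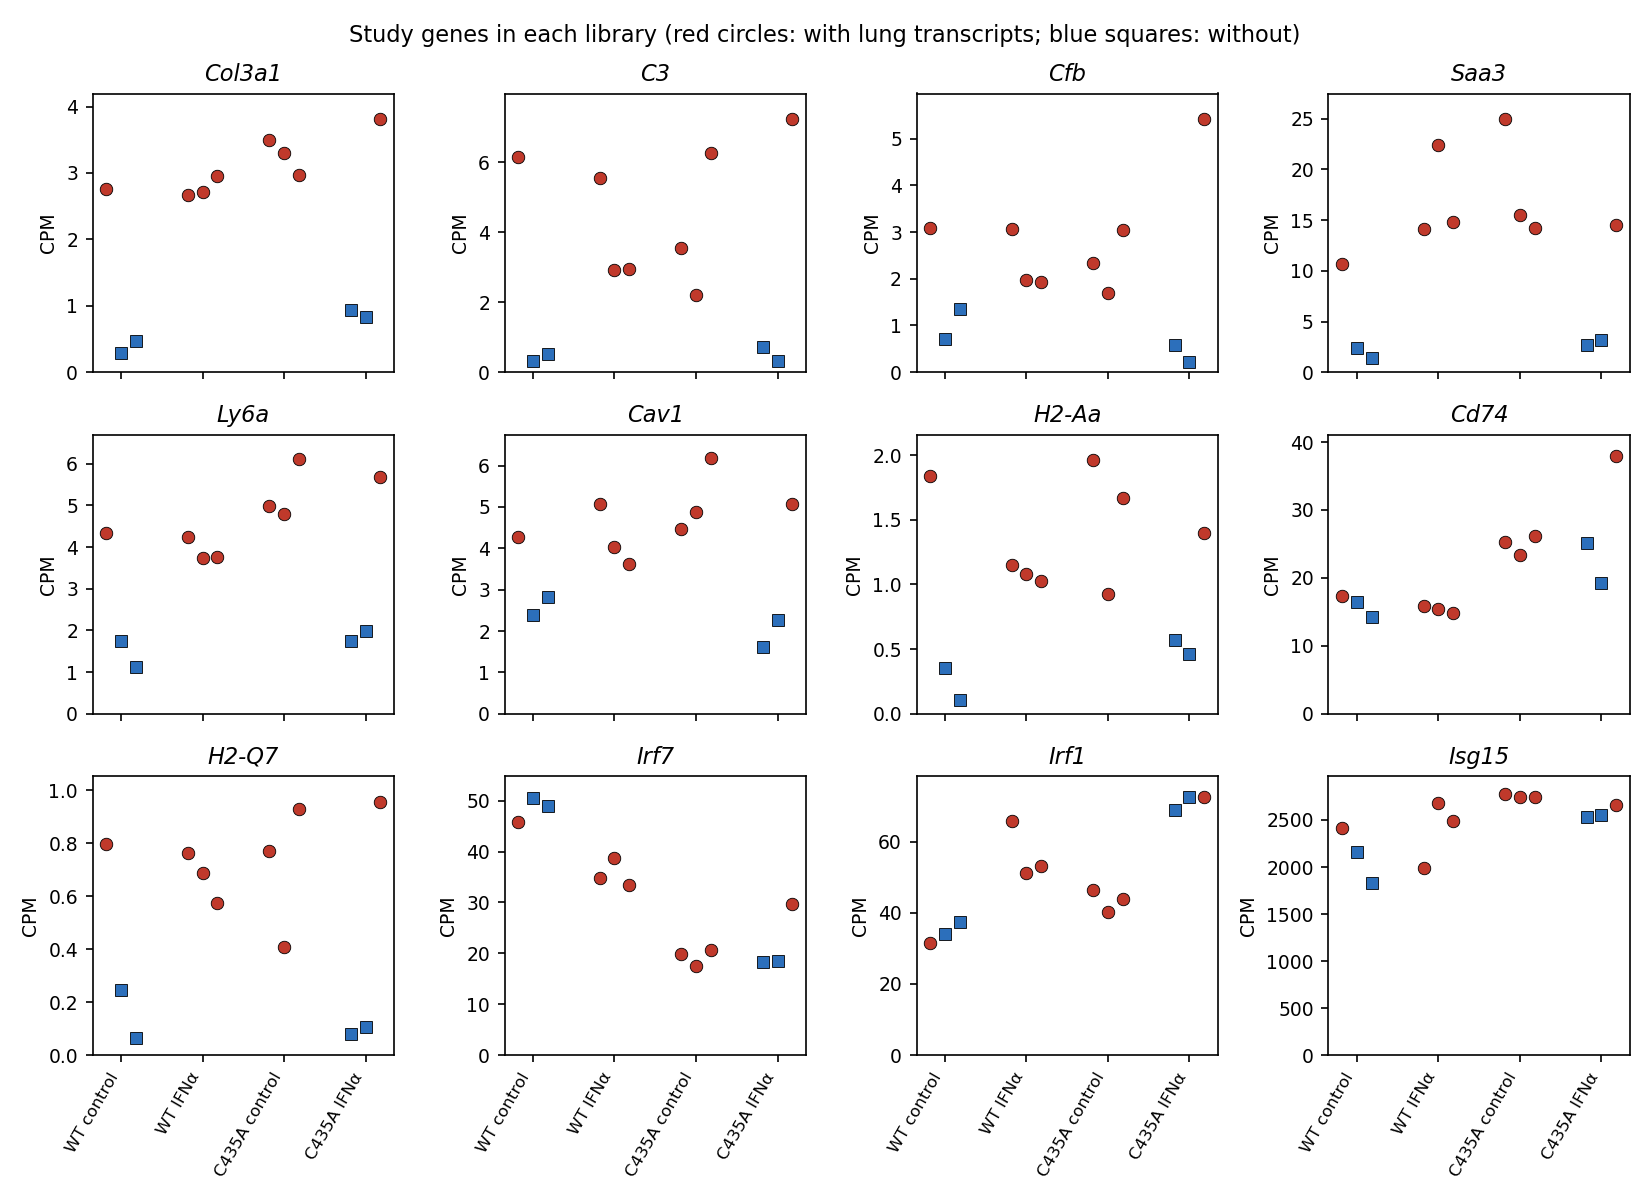
Levels in CPM (linear axes from 0) of 12 genes in the 4 groups, 1 point per library, with red circles for libraries with lung transcripts and blue squares for those without. Col3a1, C3, Saa3 and H2-Aa follow the colour within the wild-type control and mutant IFNα groups, whereas Irf1 and Isg15 follow the groups or neither.

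Each of the study's comparisons was then fitted with and without the lung term. None of the 32 genes present only with lung transcripts was called in any of the 5 comparisons, with or without the term, by edgeR or DESeq2, nor were the 17 of them that limma tested. The shares of all genes called were 0% to 0.597% by edgeR and 0.0796% to 4.23% by DESeq2, so a count of 0 among 32 genes is near the background. Of the 119 genes called for the lung term, 0 were called by edgeR in any comparison without the term, and 1 (Bgn, mutant against wild type in the controls) by DESeq2. With the term edgeR called at most 2 of the 119 in a comparison and DESeq2 at most 6, the latter for mutant against wild type with IFNα, where DESeq2 called 4.23% of all genes. The groups with libraries of both kinds had a wide spread in such genes. Saa3 was at 1.77 ± 0.69 (log2) when IFNα was compared with control among wild-type libraries, −1.48 ± 0.69 when it was among mutant ones and 1.96 ± 0.70 for mutant against wild type in the controls, with adjusted p of 0.815, 0.481 and 0.348 (edgeR). With the term these became 0.69, −0.30 and 0.87. Col3a1 went from 1.20, −0.86 and 1.53 to 0.19, 0.47 and 0.52 in the same comparisons, and none of these values was called.

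IFNα against control in the wild type, the comparison of 3 libraries with lung transcripts and 1 with and 2 without, had 4 called genes (0.0227%) without the term and 1 (0.00569%) with it. Id1 was called in both fits, at 44.3, 50.5 and 50.5 CPM in the controls and 21.6, 23.4 and 19.9 with IFNα (−1.18 ± 0.12, adjusted p = 0.00316, and −1.25 ± 0.15, adjusted p = 0.0219, with the term). Id3 was no longer called with the term (−1.02 ± 0.12 and −0.87 ± 0.13, adjusted p = 0.00643 and 0.0891). Irf1 kept its size but not its call (0.71 ± 0.10 and 0.73 ± 0.13, adjusted p = 0.0202 and 0.172). Col9a3, a chain of collagen IX, became smaller and lost its call (−1.32 ± 0.18 and −1.12 ± 0.20, adjusted p = 0.0202 and 0.183). In wild-type control 1, the control with lung transcripts, Irf1 was at 31.5 CPM, below the other controls (33.9 and 37.5) and far from the IFNα libraries (51.3 to 65.9).

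IFNα against control in the mutant had 1 called gene (0.00569%) in either fit, but not the same one. Without the term it was H2-K2, a class I gene, at 19.4, 18.1 and 23.7 CPM in the controls and 43, 41.9 and 52.3 with IFNα (1.13 ± 0.14, adjusted p = 0.0329, and 1.20 ± 0.17, adjusted p = 0.0663, with the term). With the term it was Ifna4, an interferon alpha gene, at 0.225, 0.501 and 0.489 CPM and 2.39, 2.29 and 2.94 (2.61 ± 0.40, adjusted p = 0.0864, and 3.13 ± 0.40, adjusted p = 0.0442). Neither pair of groups overlapped. The value of H2-K2 moved by less than its standard error between the fits, and that of Ifna4 by more than its own.

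Mutant against wild type in the controls had 29 called genes (0.165%) without and 21 (0.119%) with the term, of which 14 were common. Among the 15 that lost their call, Clu, a secreted chaperone, kept its value (−0.74 ± 0.12 and −0.74 ± 0.15, adjusted p = 0.0231 and 0.137) and Prr7, a membrane adaptor of T cells and neurons, nearly so (1.60 ± 0.25 and 1.46 ± 0.30, adjusted p = 0.0168 and 0.149). Among the 7 that gained one, Aim2, a sensor of cytosolic DNA, went from 1.75 ± 0.35 to 2.54 ± 0.33 (adjusted p = 0.0794 and 0.00587) and Sod3, the extracellular superoxide dismutase, from −0.90 ± 0.21 to −1.25 ± 0.19 (adjusted p = 0.13 and 0.026).

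Mutant against wild type with IFNα had 105 called genes (0.597%) without and 100 (0.569%) with the term, of which 52 were common. The 53 lost calls included Oas1b, an antiviral gene (0.68 ± 0.11 and 0.62 ± 0.13, adjusted p = 0.0114 and 0.0529), Exoc3l4 (0.97 ± 0.16 and 0.86 ± 0.19, adjusted p = 0.0149 and 0.0622) and Mgst1, a glutathione transferase (−1.16 ± 0.19 and −1.08 ± 0.25, adjusted p = 0.0163 and 0.0766). Aim2 lost its call here (1.70 ± 0.35 and 0.96 ± 0.30, adjusted p = 0.0444 and 0.144), while it gained one in the controls. The 48 gained calls included Cd74 (0.91 ± 0.20 and 1.21 ± 0.18, adjusted p = 0.054 and 0.0133). Of the genes called for the lung term, Nkap and Tcam1 were among the gained. Of the 105, 7 had a lung term at an unadjusted p under 0.05, beside 9.88% of all genes tested. The term raised the median standard error by a factor of 1.21 to 1.22 in these 4 comparisons and of 1.42 in the interaction, for which 0 genes were called in either fit by edgeR (909 and 1277 at an unadjusted p under 0.05, or 5.17% and 7.26%) and 14 without and 27 with the term by DESeq2.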

How the data were processed

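RNA of 12 B16F10 libraries, 3 in each of 4 groups, was sequenced from poly(A)-selected, stranded libraries, per the labels' protocols. Among the tools in the submitters' processing notes are StringTie 1.3.4d, HISAT2 2.0.4 and cutadapt 1.9, beside UMI-tools, edgeR, DESeq2 and the build GRCm38, with no roles. The counting step and its use of strand are not stated, so a gene and an overlapping antisense gene may share reads. The files hold whole-number counts per gene without depth scaling, as deposited by the authors, and FPKM, which the authors scaled for length and depth. Of counts from 1 to 30, 33.6% were multiples of 4 (23.3% of the whole numbers are), so a count is not 1 fragment. Gene starts equal those of GRCm38 for only 2.17% of genes, so the build of the deposited positions is not settled and they are given as deposited.

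Levels (CPM) are counts scaled to a library total of 1000000. Tests used edgeR 4.0.16 in R 4.3.3 with TMM scaling, its filter on low counts (17590 of 27503 genes kept), the quasi-likelihood test (two-sided) and Benjamini-Hochberg adjustment at 0.05, over all 12 libraries with 4 groups, without and with a 2-level term for lung transcripts. Standard errors given with edgeR differences are approximate. Each is the size of the log2 difference divided by the square root of the F value of its test. On simulated counts over 17108 genes the lung term recovered 36.4% of 2-fold, 75.4% of 4-fold and 88.1% of 16-fold changes. It made 8 false calls among 16922 unchanged genes. These rates describe the simulated counts alone. In the real data the mutant IFNα library with lung transcripts stood apart from its replicates across the transcriptome. The simulated false calls therefore give no error rate for the real calls of the lung term. Alternatives were DESeq2 1.42.0, limma 3.58.1 on log2(FPKM + 1) or with 0.1 added, other scalings, no filter, robust estimation, a replicate block, a continuous term, the 2 mixed groups alone, and each library left out. The libraries, gene lists and tests were chosen with earlier results of these data known. Named genes were the 7 of the rule with Hbb-bs and Krt13, up to 4 members of each cell type list by median level, foreign genes in no list, up to 10 expressed genes with the largest lung term in each direction, up to 5 per direction whose call changed with it, 11 fixed genes with the Y-linked ones, and up to 4 of each study list. Other genes were chosen after their values were seen. The panel, the couples and the choice within single groups were added after the data were seen.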

Additional observations from a re-analysis of the deposited data

Results flagged for a closer look

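The difference that goes with lung transcripts was itself different between the groups that held both kinds of library. By a test of that difference (edgeR, mutant IFNα minus wild-type control, adjusted p under 0.05), 406 of 17590 genes (2.31%) were called, 119 higher and 287 lower. None of the 32 genes present only with lung transcripts was among them, nor were Saa3, Ly6a, Col3a1 or C3. An example, chosen after its values were seen, is the predicted gene Gm4366, at 526 CPM in mutant IFNα 3 and 111 to 138 in the other 11 libraries. The count rests on 1 library with lung transcripts in each group, and whether it belongs to mutant IFNα 3 or to its foreign transcripts cannot be told apart. With the 2 mixed groups alone 7 genes were called.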

How the results depend on the processing

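The alternatives for the difference between groups, and the libraries left out for the 32 genes present only with lung transcripts, were chosen after seeing the data. At 0.1 CPM 11 libraries counted as holding lung transcripts, and Krt13 alone at 1 CPM gave 5. The 32 genes became 53 at 5-fold and 15 at 20-fold, and 32 to 36 with 1 library left out. For the lung term (119 calls), DESeq2 gave 325, limma 25 and 30 with 1 and 0.1 added to FPKM, and the 2 mixed groups alone 10. Leaving out 1 library gave 56 (without mutant IFNα 3) to 796 (without wild-type control 1). Its difference between groups (406) became 1334 with DESeq2, 149 without the filter, 621 with robust estimation, 663 and 682 with limma, 11 with the replicate block, 7 in the mixed groups and 35 to 812 with 1 library left out, and it could not be fitted without wild-type control 1 or mutant IFNα 3.

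With DESeq2 the calls for IFNα in the wild type and the mutant, for the mutant in the controls and with IFNα, and for the interaction were 65, 145, 240, 599 and 14, beside 4, 1, 29, 105 and 0. IFNα in the wild type gave 2 with limma and 0.1 added, 2 with the block, 1 with the lung term and 0 (without wild-type IFNα 3) to 7 (without mutant IFNα 3) with 1 library left out. IFNα in the mutant gave 2 with library totals, 3 with robust estimation, 3 and 3 with limma, 0 with the block and 0 to 2 with 1 library left out. The mutant controls gave 17 with the block and 11 (without mutant control 3) to 58 (without mutant IFNα 3). The mutant with IFNα gave 49 with library totals, 58 and 59 with limma, 59 with the block and 21 to 112 with 1 library left out. Replicate numbers did not pair the libraries: 18 correlations of same-numbered libraries were −0.134 to 0.0884.

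The lung term changed sign for Cd274 with the replicate block (0.040) and without wild-type control 2 (0.014), mutant IFNα 1 (0.030) or mutant IFNα 3 (0.059), for H2-Eb1 (−0.57) and Irf1 (0.0031) without wild-type control 1, and for Irf7 (−0.029), Id1 (−0.099) and H2-K2 (−0.030) without mutant IFNα 3. With 1 library left out the values ranged from −0.1164 to 0.059 for Cd274, −0.57 to 1.76 for H2-Eb1, −0.089 to 0.0031 for Irf1, −0.029 to 0.66 for Irf7, −0.099 to 0.30 for Id1 and −0.030 to 0.27 for H2-K2. The cause was not tested. With 1 library of a kind per group, the lone library is assumed to vary like the others.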
